A study of Mus musculus with 4 samples.

Results

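The 6 forkhead genes described here lie in 2 paralogous clusters of the mouse genome, Foxq1, Foxf2 and Foxc1 on chromosome 13 and Foxf1, Foxc2 and Foxl1 on chromosome 8. They are 6 of the 21738 protein-coding genes in the GENCODE annotation of GRCm39, and they were chosen by family and position with earlier results of these data known. An H3K27ac peak interval was counted for a gene where it lay within 300 kb of its start site, and the windows of neighbours overlap, so that most intervals were counted for more than 1 gene. The joined windows, chr13:31440117-32290616 (850.5 kb) and chr8:121511074-122154679 (644 kb), contained 58 of the 40899 intervals listed for limb EGFP+ cells and 11 of the 34360 listed for limb EGFP- cells. The trunk lists gave 64 of 36231 (EGFP+) and 13 of 30716 (EGFP-). The position and presence of intervals chose what is described, so the values below are descriptions without a test.

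H3K27ac, a histone acetylation at active promoters and enhancers, was mapped by ChIP-seq in cells sorted from E14.5 fetuses of the G4 background with the Col2a1-EGFP genotype, an EGFP sensor at the locus of the cartilage collagen gene Col2a1. All 4 populations carried the sensor, and no treatment of the fetuses is named. Per the paper's methods, sodium butyrate was added to the cell suspensions meant for this ChIP and to its buffers. The fetuses were grown from male G4 embryonic stem cells of a single edited clone, homozygous for the sensor. EGFP+ cells stand for chondrocytes, EGFP- cells are the mixed remainder of the same dissected limbs or trunk (without its viscera), and each population was represented by 1 library. There is thus no replicate error, and because limb and trunk chromatin ran on separate lanes, an effect of the lane and one of the tissue cannot be told apart.

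Forkhead factors bind DNA through a winged-helix domain and switch on programmes of mesenchymal and endodermal development. Foxc1 and Foxc2 act in somites, the skull, the axial skeleton, vessels and heart, and Foxc1 also takes part in the hedgehog response of growing cartilage. Foxf1, Foxf2 and Foxl1 are known from the mesenchyme of lung, gut and palate, where hedgehog signals induce them, and Foxq1 is known from hair and stomach epithelium.

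Sequence at 7 summits is shown first, because the promoter summits and these distal summits differ in CpG content and because they recur in the results. The first 3 are the promoter intervals of Foxc1, Foxf1 and Foxl1, the next 3 are the 2 distal regions of the chromosome 13 cluster and the 1 of the chromosome 8 cluster that stood highest in the limb EGFP+ list, and the last is the distal region that stood highest in both EGFP- lists. The Foxl1 summit, at chr8:121852537, lies outside the promoter window of the gene, which begins at chr8:121852679, 2 kb before the start site. Only the edge of the Foxl1 interval overlaps that window. Each line holds 300 bases of the GRCm39 plus strand, 5′ to 3′, around the summit, with CG dinucleotides in capitals.

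Foxc1 promoter, chr13:31990012-31990311: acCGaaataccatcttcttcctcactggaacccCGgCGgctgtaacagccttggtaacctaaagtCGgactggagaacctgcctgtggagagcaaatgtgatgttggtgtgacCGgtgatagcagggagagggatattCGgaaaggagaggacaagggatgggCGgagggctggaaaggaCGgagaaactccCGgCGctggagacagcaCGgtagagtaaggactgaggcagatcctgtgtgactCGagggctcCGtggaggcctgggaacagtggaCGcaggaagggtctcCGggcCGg
Foxf1 promoter, chr8:121810055-121810354: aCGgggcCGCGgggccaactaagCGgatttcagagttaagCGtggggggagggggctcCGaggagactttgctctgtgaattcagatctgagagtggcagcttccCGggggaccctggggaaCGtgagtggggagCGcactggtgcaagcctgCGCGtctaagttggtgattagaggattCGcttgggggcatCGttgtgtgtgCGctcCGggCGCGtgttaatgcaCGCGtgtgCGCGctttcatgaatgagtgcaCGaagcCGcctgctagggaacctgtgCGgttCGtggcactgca
Foxl1 promoter, chr8:121852387-121852686: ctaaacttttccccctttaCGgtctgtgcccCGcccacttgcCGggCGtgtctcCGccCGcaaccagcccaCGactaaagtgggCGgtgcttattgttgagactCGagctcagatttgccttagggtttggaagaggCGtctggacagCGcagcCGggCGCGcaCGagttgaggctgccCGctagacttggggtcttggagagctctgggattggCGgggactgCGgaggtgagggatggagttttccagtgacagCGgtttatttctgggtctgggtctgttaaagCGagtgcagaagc
Upstream of Foxc1, chr13:31959479-31959778: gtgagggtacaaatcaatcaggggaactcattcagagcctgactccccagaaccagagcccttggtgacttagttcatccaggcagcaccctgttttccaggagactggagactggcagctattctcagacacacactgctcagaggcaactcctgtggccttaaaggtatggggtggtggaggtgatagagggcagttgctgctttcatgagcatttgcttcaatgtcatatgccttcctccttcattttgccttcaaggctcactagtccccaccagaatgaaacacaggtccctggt
Gmds intron downstream of Foxc1, chr13:32258009-32258308: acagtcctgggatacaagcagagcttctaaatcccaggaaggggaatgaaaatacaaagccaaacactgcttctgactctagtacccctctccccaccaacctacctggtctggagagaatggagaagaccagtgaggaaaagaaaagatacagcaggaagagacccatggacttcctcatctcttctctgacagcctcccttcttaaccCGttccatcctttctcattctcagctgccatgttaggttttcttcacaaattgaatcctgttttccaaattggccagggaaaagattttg
Downstream of Foxl1, chr8:121930210-121930509: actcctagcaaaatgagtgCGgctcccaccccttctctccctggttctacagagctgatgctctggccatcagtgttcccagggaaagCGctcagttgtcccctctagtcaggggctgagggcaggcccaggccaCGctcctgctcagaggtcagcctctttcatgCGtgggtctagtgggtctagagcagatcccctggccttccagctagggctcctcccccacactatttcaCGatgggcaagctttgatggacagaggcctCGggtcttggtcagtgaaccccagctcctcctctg
Highest EGFP- region, downstream of Foxl1, chr8:122109655-122109954: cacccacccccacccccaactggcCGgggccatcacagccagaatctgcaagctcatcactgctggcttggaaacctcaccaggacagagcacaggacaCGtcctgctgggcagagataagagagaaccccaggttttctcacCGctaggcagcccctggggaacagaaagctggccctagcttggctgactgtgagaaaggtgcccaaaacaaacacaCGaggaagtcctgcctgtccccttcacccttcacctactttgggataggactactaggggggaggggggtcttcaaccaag

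The sequences at promoter intervals hold 16 (Foxc1), 25 (Foxf1) and 20 (Foxl1) CG dinucleotides. The distal summits shown hold 0 and 1 in the chromosome 13 cluster and 6 and 4 in the chromosome 8 cluster. Over all 81 distal regions of the 6 genes the median was 5 per 300 bases, with 4 on chromosome 13 and 6 on chromosome 8, and over all distal regions of the genome it was 4. The distal regions in the exons of Foxc1 and Foxc2 described below, with 22 and 25, were as CpG-rich as the summits of these promoter intervals. Promoter intervals genome-wide had medians of 13 to 15. Around the start sites, the observed over expected CpG ratio in 500 bp on each side was 0.94 at Foxc1, 0.86 at Foxf1, 0.99 at Foxc2, 0.77 at Foxl1 and 0.81 at Foxf2. Foxq1 stood apart at 0.24, below the median of 0.51 for protein-coding genes.

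Within 150 bp of the summit, the forkhead letters TGTTTAC, read on both strands, were present in 3 of the 81 distal regions (3.70%) and in 4.29% of all 43885 distal regions. The SOX letters ACAATGG were present in 2 (2.47%) against 3.73%. The reverse complement of the first string ends in the letters that begin the second, so the 2 strings can overlap. These shares describe only these letters in these windows.

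The chondrocyte markers chosen here followed the sort, and those listed for other cell types were marked in few cases in any list. All 14 chondrocyte marker promoters had an interval in both EGFP+ lists, 6 of them had one in limb EGFP- cells and 5 in trunk EGFP- cells. The paper also counts Foxa2, Foxa3 and Barx1 as chondrogenic genes, and these were not among the 14. The Foxa3 promoter was marked in all 4 lists, and those of Foxa2 and Barx1 were marked in none. Foxa2 and Barx1 are counted with viscera in what follows. Of 35 marker promoters of muscle, endothelium, blood, epidermis, nerve and viscera, limb EGFP- cells had 2 marked, trunk EGFP- cells 3, limb EGFP+ cells 2 and trunk EGFP+ cells 1, where 51.6% to 54.4% of all protein-coding genes were marked. The 2 in limb EGFP+ cells were the muscle gene Myog and the neural crest gene Sox10, both marked in that list alone. In such mixed cells, fewer marked cells and less signal per cell cannot be told apart. In the order limb EGFP+, limb EGFP-, trunk EGFP+ and trunk EGFP-, 4, 3, 1 and 0 of 5 limb identity promoters and 2, 0, 3 and 1 of 4 axial ones were marked. Reads per summit were recovered from the deposited values. The library-wide background was 1.49, 1.63, 1.60 and 1.83 reads per 200 bp in limb EGFP+, limb EGFP-, trunk EGFP+ and trunk EGFP- cells, and the weakest summits rested on 7, 7, 7 and 8 reads. In the following, a range in parentheses after a number of reads or a percentage is its exact 95% interval, which covers counting error only, since reads amplified by PCR are not independent molecules.

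The Foxc promoters were examined first, since both paralogs are factors of skeletal mesenchyme. A promoter interval is one that overlaps the stretch around a protein-coding start site that begins 2 kb before it and ends 500 bp past it. Foxc1 (ENSMUSG00000050295.5, start site at 31990616 on the plus strand of chromosome 13) had a promoter interval in limb EGFP+, trunk EGFP+ and trunk EGFP- cells and none in limb EGFP- cells. This pattern was seen at 1.25% of the 21562 genes with a protein-coding transcript, which are the base of all promoter percentages here. The summit held 96 reads (77.8 to 117) in limb EGFP+, 76 reads (59.9 to 95.1) in trunk EGFP+ and 23 reads (14.6 to 34.5) in trunk EGFP- cells. The intervals of both EGFP+ counts lay above that of trunk EGFP- cells, although the trunk EGFP- library had the highest library-wide background.

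The strength of the Foxc1 promoter depended on the measure. A percentile here gives the share of a library's own intervals that lie lower. By reads at the summit Foxc1 stood at percentile 96.0 of the limb EGFP+ list and at 95.2 in trunk EGFP+ cells, but by −log10 p, which weighs the summit against its surroundings and is used for all percentiles below, at 78.8 and 75.9. The local background of the authors' peak caller, taken from the same library, was 25.5 reads per 200 bp at the Foxc1 promoter in limb EGFP+ and 21.4 in trunk EGFP+ cells, against a median of 3.62 and 3.90 at distal intervals of the same lists. In trunk EGFP- cells it was 4.46. At the median background within 5 kb of Foxc1 a summit needed 43 reads to enter the limb EGFP+ list and 40 to enter the trunk EGFP+ list, against 7 at the library-wide background. Its fold over local background was therefore only 3.66 and 3.44 in the EGFP+ lists, below the 4.40 of the trunk EGFP- summit, which had fewer reads.

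Foxc2 (ENSMUSG00000046714.8, start site at 121842910 on the plus strand of chromosome 8) had no promoter interval in any list. It shared this with 41.3% of protein-coding genes. In trunk EGFP+ cells, however, an interval began 0.596 kb downstream of its start site, in the exon of the gene and just past the promoter window, at chr8:121843506-121843966. It held 42 reads (30.3 to 56.8) over a local background of 13.5 and stood at percentile 51.5. A second trunk EGFP+ region followed 4.05 kb downstream of the start site, with 30 reads (20.2 to 42.8) at percentile 6.96. The nearest interval of the other 3 lists lay 7.37 kb upstream of Foxc2, at the promoter of the neighbouring gene Mthfsd. A like interval inside the gene body was found at Foxc1. A region in its exon, 0.879 kb downstream of the start site, had 62 reads (47.5 to 79.5) in limb EGFP+, 66 (51.0 to 84.0) in trunk EGFP+ and 16 (9.15 to 26.0) in trunk EGFP- cells. From RNA-seq, the paper reports that Foxc1 and Foxc2 were preferentially expressed in EGFP+ cells. Lack of a promoter interval at Foxc2 is thus no measure of its expression.

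Both Foxf genes encode factors of visceral mesenchyme, and their promoters differed. Foxf2 (ENSMUSG00000038402.4, start site at 31809663) was unmarked in all 4 lists. Foxf1 (ENSMUSG00000042812.7, start site at 121811074) was marked in trunk EGFP+ cells alone, a pattern seen at 0.775% of protein-coding genes. The Foxf1 interval, chr8:121810048-121810351, held 28 reads (18.6 to 40.5) and stood at percentile 53.9. It lay between the start site of Foxf1 and that of the lncRNA Fendrr, which is transcribed in the opposite direction, so the promoter of the gene and that of the lncRNA cannot be told apart. A further trunk EGFP+ interval in the intron of Foxf1, 1.52 kb from the start site, held 17 reads (9.90 to 27.2), at percentile 1.96.

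Foxl1 (ENSMUSG00000097084.2, start site at 121854679), a factor of gut mesenchyme, had a promoter interval in both EGFP+ lists and in neither EGFP- list, as did 1.45% of protein-coding genes. The summit held 17 reads (9.90 to 27.2) in limb EGFP+ and 36 (25.2 to 49.8) in trunk EGFP+ cells. These intervals ended 1.91 and 1.82 kb upstream of the start site and overlapped only the outer edge of the promoter window. The trunk EGFP+ summit shown above lay outside that window. A trunk EGFP- interval with 12 reads (6.20 to 21.0), chr8:121851678-121851976, ended 2.70 kb upstream of the start site and was counted as distal. The absence of a promoter interval in trunk EGFP- cells thus holds for this window only. Foxq1 (ENSMUSG00000038415.11, start site at 31740117), the epithelial member of the set, was unmarked, and its nearest interval lay 155 kb away in limb EGFP+, 43.2 kb in limb EGFP-, 21.4 kb in trunk EGFP+ and 249.9 kb in trunk EGFP- cells. For Foxf2 these distances were 85.4, 26.0, 47.8 and 180.3 kb.

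**Figure D1:**
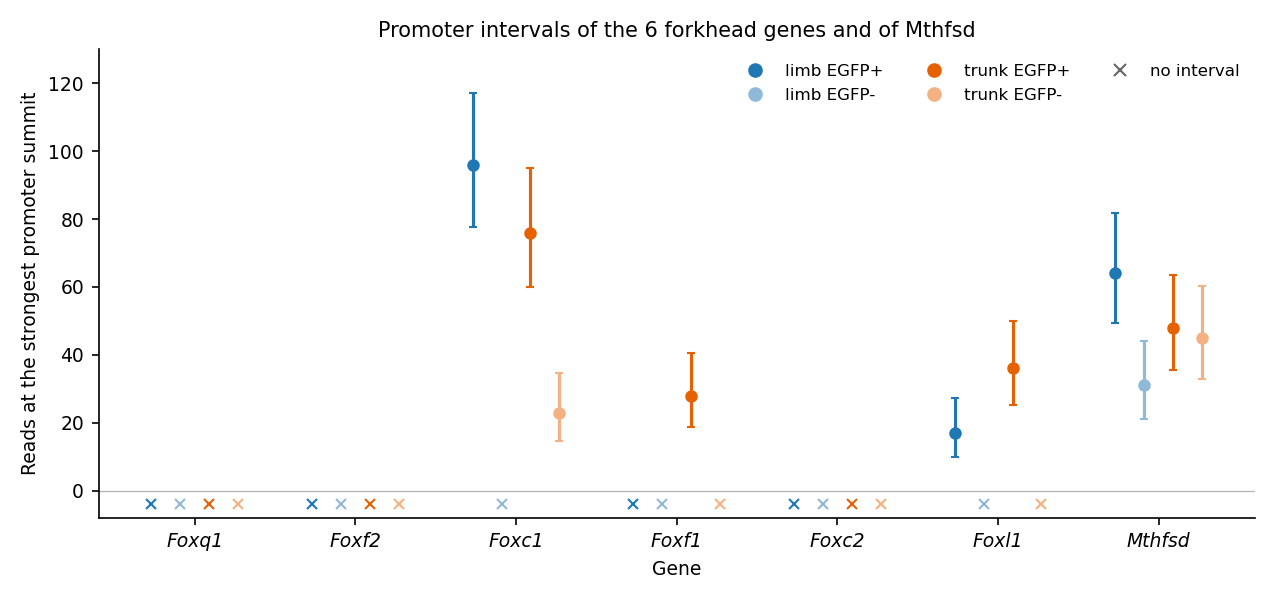
Reads at the strongest summit of a promoter interval (vertical axis, recovered from the deposited values) of the 6 forkhead genes and of Mthfsd. Bars are exact Poisson 95% intervals, in the 4 lists, 1 library each. Crosses mark genes without a promoter interval in a list. The Foxc1 counts of 96 and 76 reads in EGFP+ cells stand above the 23 reads of trunk EGFP- cells, Foxq1, Foxf2 and Foxc2 have crosses alone, and Mthfsd has an interval in all 4 lists.

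In all, 2 of the 6 promoters were marked in limb EGFP+, 0 in limb EGFP-, 3 in trunk EGFP+ and 1 in trunk EGFP- cells, while 54.4%, 51.6%, 52.6% and 52.7% of protein-coding genes were marked in these lists. In the limb 2 promoters were marked in EGFP+ but not EGFP- cells (background 4.82%), and in the trunk also 2 (background 3.21%). None was marked in EGFP- but not EGFP+ cells of the same tissue (background 2.02% in the limb and 3.32% in the trunk). Mthfsd, which encodes a folate synthetase domain protein and has the only other protein-coding promoter inside the windows, lies between Foxf1 and Foxc2. It was marked in all 4 lists, as were 47.4% of genes, with 64, 31, 48 and 45 reads.

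The question then was whether distal intervals near these genes divided between the sorted fractions as the rest of the genome did. In the chromosome 13 cluster 30 distal intervals, meaning intervals outside every promoter window, were called in limb EGFP+ cells and 5 in limb EGFP- cells. The EGFP+ list thus gave 85.7% (69.7 to 95.2%) of the limb intervals, against 56.2% over all distal intervals. For trunk cells the counts were 24 and 3, or 88.9% (70.8 to 97.6%), against 57.6%. In the chromosome 8 cluster they were 25 and 5 for limb cells, or 83.3% (65.3 to 94.4%), and 35 and 7 for trunk cells, or 83.3% (68.6 to 93.0%). All 4 of these 95% intervals lay above the share over all distal intervals, but this comparison is no test. The genes were chosen with earlier results of these data known. The ranges also treat neighbouring intervals of the same locus and library as independent draws, which was not tested.

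Most EGFP+ intervals also had no EGFP- counterpart of the same tissue at their own position. On chromosome 13 this held for 27 of 30 limb intervals (90%, 73.5 to 97.9%) and 21 of 24 trunk intervals (87.5%, 67.6 to 97.3%). On chromosome 8 it held for 21 of 25 (84.0%, 63.9 to 95.5%) and 31 of 35 (88.6%, 73.3 to 96.8%). The share over all distal intervals was 68.5% (limb) and 69.1% (trunk), and the lower bound for the limb on chromosome 8 and for the trunk on chromosome 13 fell below it.

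The intervals in EGFP+ cells were called over a raised background. The median local background at the distal EGFP+ intervals of the chromosome 13 cluster was 6.66 reads per 200 bp in the limb and 6.67 in the trunk, against 3.62 and 3.90 over all distal intervals. On chromosome 8 it was 4.46 and 6.26. At the EGFP- intervals of the clusters it ranged from 1.63 to 4.76. A summit needed 17 reads for a call at the median EGFP+ background of the chromosome 13 cluster in either tissue, but 8 and 9 at the median EGFP- background there. The EGFP- background is known only where EGFP- cells had an interval, so the limit for a call at EGFP+ positions without one is not known, and the part of the background in the counts was not tested.

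**Figure D2:**
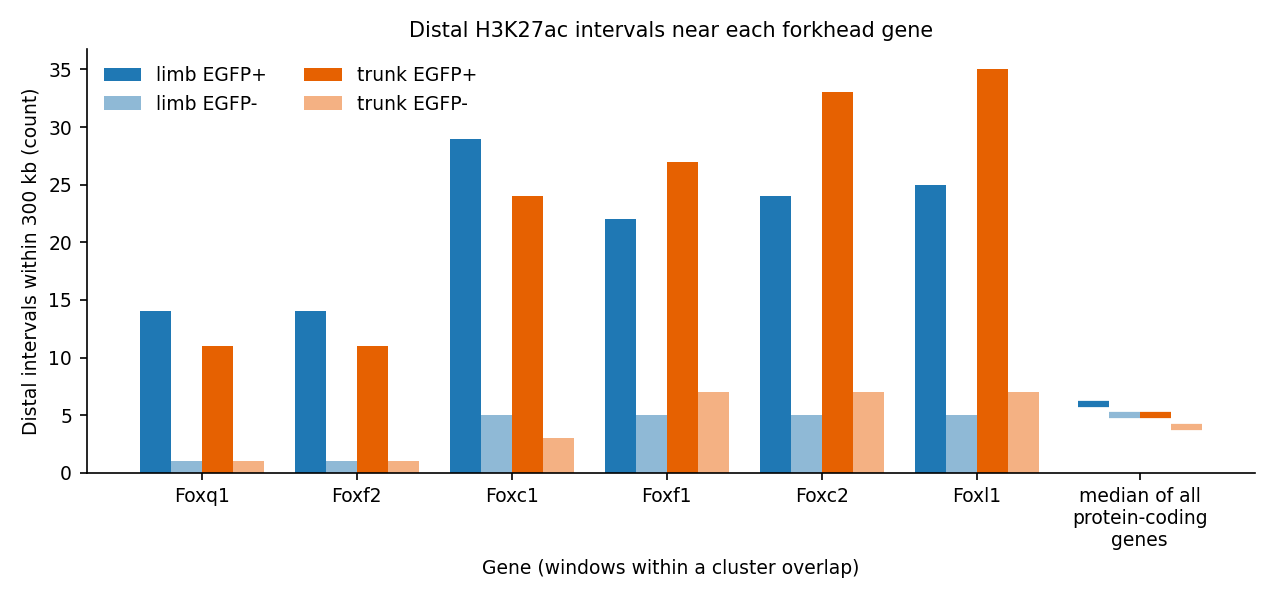
Number of distal intervals within 300 kb of each gene (vertical axis) in the 4 lists, with windows that overlap within a cluster. Short lines at the right give the median of all protein-coding genes, 6, 5, 5 and 4. Foxc1 and the 3 genes on chromosome 8 reach 22 to 35 intervals in EGFP+ cells and 3 to 7 in EGFP- cells.

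Gene by gene, in the order limb EGFP+, limb EGFP-, trunk EGFP+ and trunk EGFP-, Foxc1 had 29, 5, 24 and 3 distal intervals within 300 kb. The medians over protein-coding genes were 6, 5, 5 and 4. As many or more intervals than at Foxc1 were found at 1.35% of genes in limb EGFP+ and 1.96% in trunk EGFP+ cells, but at 50.5% in limb EGFP- and 61.5% in trunk EGFP- cells. Foxc1 was thus dense in the chondrocyte lists and ordinary in the others. Foxq1 and Foxf2 each had 14, 1, 11 and 1, and 16.9% of genes had at least as many in limb EGFP+ and 21.6% in trunk EGFP+ cells. Within 100 kb the direction in the limb was not kept, since Foxq1 had 0 EGFP+ and 1 EGFP- intervals there and Foxf2 had 1 of each.

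On chromosome 8, Foxf1 had 22, 5, 27 and 7 distal intervals, Foxc2 had 24, 5, 33 and 7, and Foxl1 had 25, 5, 35 and 7. In trunk EGFP+ cells 0.189% of genes had at least as many as Foxl1, 0.248% at least as many as Foxc2 and 1.08% at least as many as Foxf1. In limb EGFP+ cells these shares were 2.88%, 3.45% and 4.98%. The order of the genes within this cluster differs by few intervals, since their windows are nearly the same. The EGFP+ share could be set beside other genes where at least 20 intervals were present. It was 85.3% at Foxc1 in the limb and 88.9% in the trunk, and 0.751% and 0.676% of such genes reached these values, whose medians were 56.5% and 56.0%. At Foxf1, Foxc2 and Foxl1 it lay between 79.4% and 83.3%.

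With each interval given only to the gene with the nearest start site, the counts gathered at 2 genes. Foxc1 kept 28, 4, 22 and 3, while Foxq1 had 1, 0, 1 and 0 and Foxf2 had 1, 1, 1 and 0. Foxl1 kept 21, 5, 27 and 7, while Foxf1 had 4, 0, 6 and 0 and Foxc2 had 0, 0, 2 and 0. The nearest gene is a matter of position and does not say which promoter an interval acts on.

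Intervals of the 4 lists that overlapped were joined into 81 distal regions, 37 on chromosome 13 and 44 on chromosome 8, of 43885 in the genome. On chromosome 13, 32 regions (86.5%, 71.2 to 95.5%) had EGFP+ but no EGFP- intervals, and on chromosome 8, 35 (79.5%, 64.7 to 90.2%), against 46.7% of all distal regions. EGFP- intervals alone were found at 1 and 2 regions, against 32.3%. The other 4 and 7 regions had both.

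**Figure D3:**
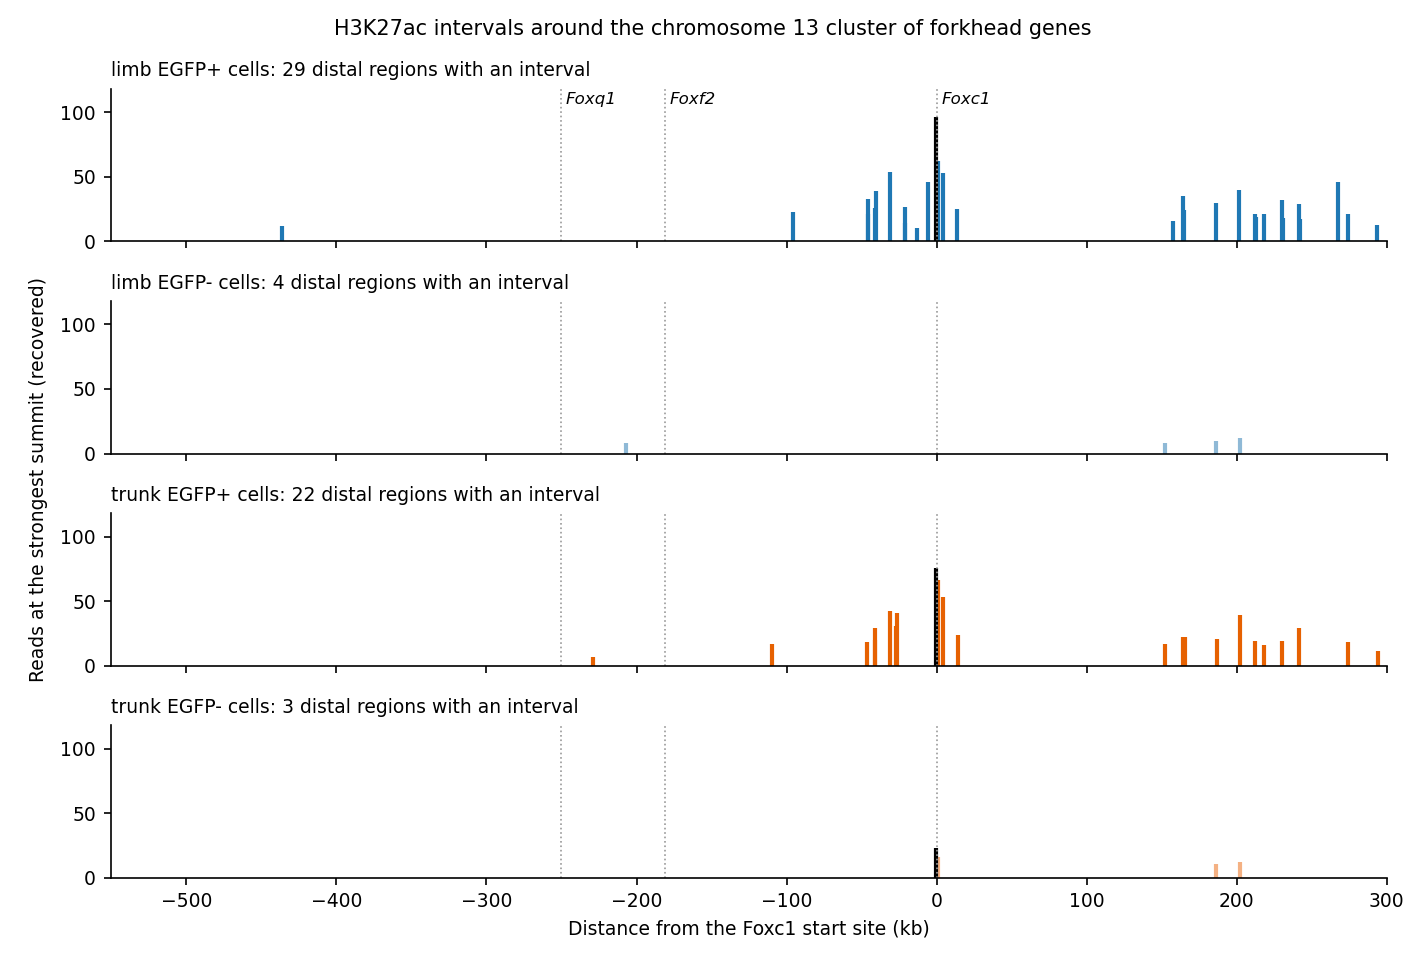
Distal regions (coloured) and promoter intervals of the forkhead genes (black) around the chromosome 13 cluster, by distance from the Foxc1 start site in kb, with bar height giving reads at the strongest summit in each of the 4 lists. Dotted lines mark the start sites of Foxq1, Foxf2 and Foxc1. The bars of EGFP+ cells gather in a group around Foxc1 and in a second group beyond 150 kb downstream, with 137 kb free of distal regions between them.

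Most chromosome 13 regions lay around Foxc1 or far downstream of it. Between Foxf2 and Foxc1 there were 13 regions, downstream of Foxc1 there were 21, and only 2 lay between Foxq1 and Foxf2 and 1 upstream of Foxq1. The longest stretch without a distal region, 207 kb, included the start site of Foxq1, and another of 97.1 kb included that of Foxf2. Downstream of Foxc1 none was called for 137 kb, at chr13:32005014-32142397. All 17 regions beyond this stretch lay 152 to 294 kb from Foxc1 within Gmds, an enzyme gene of GDP-fucose synthesis, which held 19 of the 37 regions.

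Of the regions upstream of Foxc1 marked in both EGFP+ lists, none of which had an EGFP- interval, the highest lay 30.8 kb from its start site, at chr13:31959030-31960527 in an intron of the lncRNA Gm61462. Its summit held 54 reads (40.6 to 70.5) in limb EGFP+ and 42 (30.3 to 56.8) in trunk EGFP+ cells, at percentiles 70.4 and 59.6. Next came a region 40.6 kb upstream, at chr13:31949740-31950274, with 39 reads (27.7 to 53.3) and 29 (19.4 to 41.7). Between them and the gene, regions of a single tissue followed each other closely. An exon of Gm61462, 26.6 kb upstream, was marked in trunk EGFP+ cells alone with 41 reads (29.4 to 55.6) at percentile 60.1. An exon of the lncRNA Gm11379, 21.3 kb upstream, was marked in limb EGFP+ cells alone with 27 reads (17.8 to 39.3) at percentile 61.6. Both overlap the promoter window of the lncRNA named.

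Of all distal regions of the chromosome 13 cluster, the highest by within-list percentile lay far downstream. It was marked in limb EGFP+ cells alone, at chr13:32257652-32258641 in an intron of Gmds, 268 kb from Foxc1, with 46 reads (33.7 to 61.4) at percentile 71.9. By contrast, 2 wide regions in Gmds introns were marked in all 4 lists, as were 8.67% of distal regions. At chr13:32191758-32193708, 202 kb from Foxc1, the summits held 40 reads (28.6 to 54.5) and 39 (27.7 to 53.3) in limb and trunk EGFP+ cells, above the 12 reads (6.20 to 21.0) of each EGFP- list. At chr13:32176259-32178151 they held 30 and 21 reads in EGFP+ cells against 10 and 11 in EGFP- cells. In these 2 regions the EGFP+ counts were higher, and at the second the 95% intervals of both trunk counts (13 to 32.1 and 5.49 to 19.7) overlapped.

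The only chromosome 13 region of EGFP- cells alone lay 26.2 kb upstream of Foxf2, with 8 reads (3.45 to 15.8) in limb EGFP- cells. The few regions nearest to Foxq1 and Foxf2 had 7 to 23 reads, and none was present in more than 1 list. Those 85.6 and 71.3 kb downstream of Foxf2 stood at percentile 46.2 in limb EGFP+ and 37.5 in trunk EGFP+ cells. The medians of all distal intervals of these lists were lower, at 32.8 and 31.7.

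**Figure D4:**
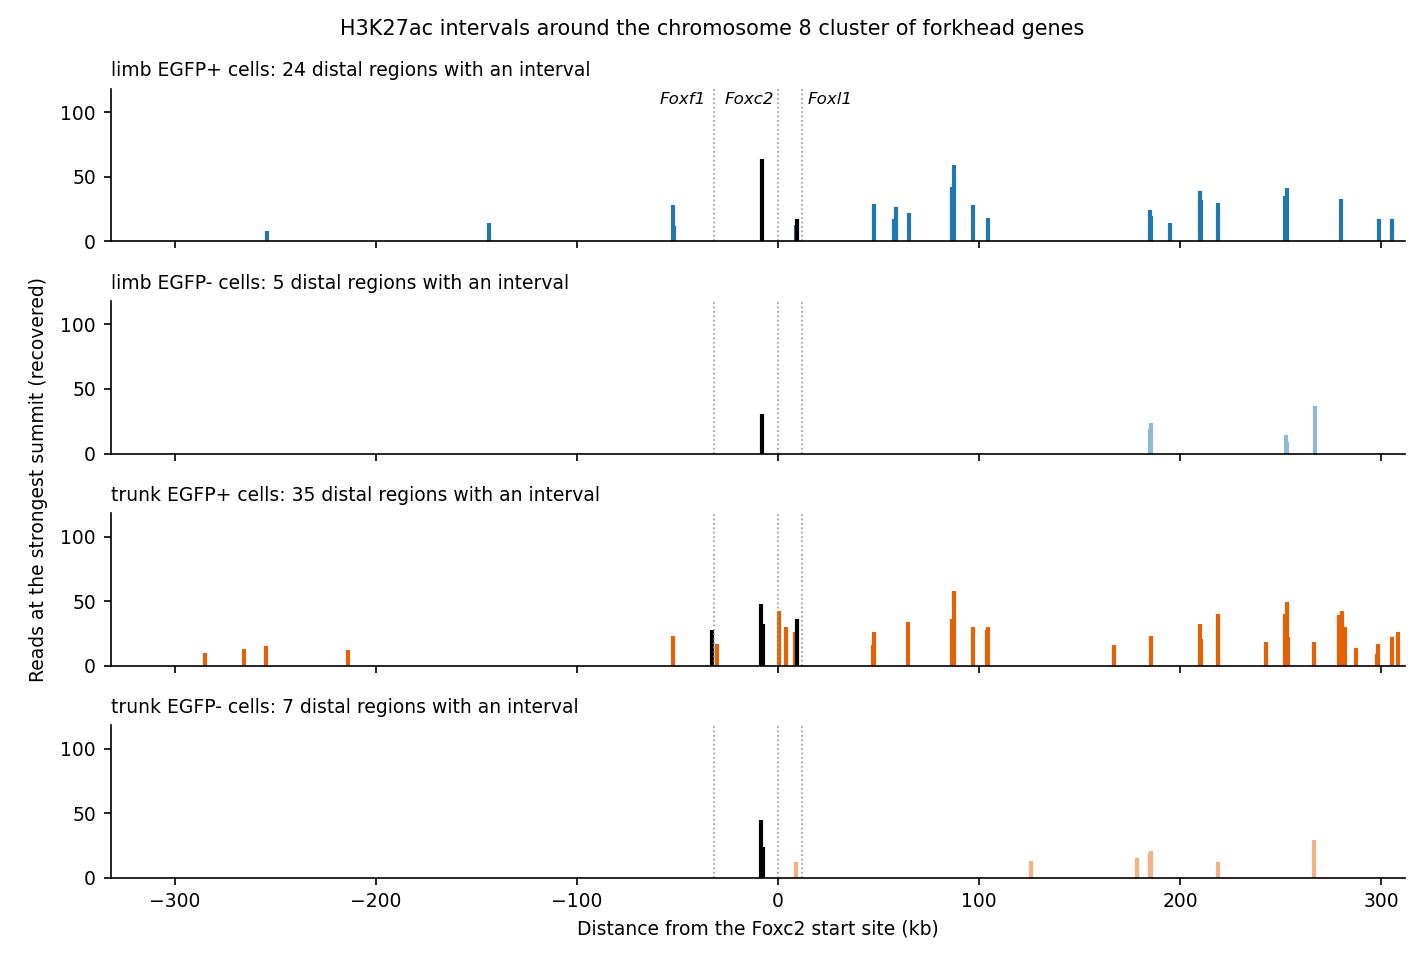
Distal regions (coloured) and promoter intervals of the forkhead genes and Mthfsd (black) around the chromosome 8 cluster, by distance from the Foxc2 start site in kb, with bar height giving reads at the strongest summit in each of the 4 lists. Dotted lines mark the start sites of Foxf1, Foxc2 and Foxl1. Bars of EGFP+ cells are spread over the 300 kb downstream of Foxl1, and those of EGFP- cells are few.

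The chromosome 8 regions were spread more evenly and lay mostly on 1 side. Downstream of Foxl1 there were 32 regions, and 26 of them were marked in trunk EGFP+ and 19 in limb EGFP+ cells. Upstream of Foxf1 there were 8, and 4 more lay between the genes. No gap between regions was longer than 91.2 kb.

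The highest EGFP+ region without an EGFP- interval lay 75.7 kb downstream of Foxl1, at chr8:121929901-121930805 in an exon and the start window of the lncRNA 5033426O07Rik. It held 59 reads (44.9 to 76.1) in limb EGFP+ and 58 (44.0 to 75.0) in trunk EGFP+ cells, at percentiles 78.4 and 73.3, and was the only distal region of either cluster in the upper 25% of the limb EGFP+ list. The next lay 198 kb downstream, at chr8:122052401-122053005 in an intron of the lncRNA Gm26815, with 39 reads (27.7 to 53.3) and 32 (21.9 to 45.2).

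In trunk EGFP+ cells 2 further regions reached the upper 25% of the list, and each had a weaker EGFP- interval. At chr8:122095862-122096337, 241 kb downstream of Foxl1, the summits held 41 reads (29.4 to 55.6) in limb EGFP+, 49 (36.2 to 64.8) in trunk EGFP+ and 9 (4.12 to 17.1) in limb EGFP- cells. At chr8:122061098-122062386, 207 kb downstream in an intron of Gm26815, they held 30 reads (20.2 to 42.8) in limb EGFP+, 40 (28.6 to 54.5) in trunk EGFP+ and 12 (6.20 to 21.0) in trunk EGFP- cells. In both regions the EGFP- count was the lowest. At the first its 95% interval lay below those of both EGFP+ counts, and at the second below that of trunk EGFP+ cells only.

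The highest region of EGFP- cells was at chr8:122109569-122109996, 255 kb downstream of Foxl1 in an intron of the lncRNA Gm63906. It held 37 reads (26.1 to 51.0) in limb EGFP- and 29 (19.4 to 41.7) in trunk EGFP- cells, 18 (10.7 to 28.4) in trunk EGFP+ cells, and had no limb EGFP+ interval. The 95% intervals of both trunk counts overlapped. At percentile 85.2 in limb EGFP- cells and 73.0 in trunk EGFP- cells, it was the highest distal region of either cluster in the EGFP- lists. It was also the highest of all 81 regions in any list by percentile. A region in all 4 lists, 174 kb downstream of Foxl1 in an intron of Gm26815, had 20, 24, 23 and 21 reads in the order of the lists given above, with overlapping 95% intervals. By percentile it stood at 33.7 in limb EGFP+ against 56.3 in limb EGFP- cells, and at 47.8 against 49.8 in the trunk. Trunk EGFP- cells alone marked 2 regions, 114 kb downstream of Foxl1 with 13 reads (6.92 to 22.2) at percentile 21.5 and 167 kb downstream with 15 reads (8.40 to 24.7) at percentile 38.9.

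The balance of limb and trunk EGFP+ regions was not the same in the 2 clusters, though this difference was not tested. On chromosome 13, 14 regions were marked in limb EGFP+ cells alone (37.8%, 22.5 to 55.2%) and 6 in trunk EGFP+ cells alone (16.2%, 6.19 to 32.0%). On chromosome 8 the order was the reverse, with 6 limb-alone (13.6%, 5.17 to 27.4%) and 17 trunk-alone regions (38.6%, 24.4 to 54.5%). Over all distal regions the shares were 21.5% and 14.6%. The trunk-alone share on chromosome 8 and the limb-alone share on chromosome 13 were the 2 whose intervals lay above the background, which again is no test. Both EGFP+ lists and no other marked 12 regions in each cluster, 32.4% and 27.3%, against 10.6%. These are shares of all regions, and both clusters had an excess of regions with EGFP+ but no EGFP- intervals. Among such regions alone, limb-alone ones were 14 of 32 on chromosome 13, not above the 9445 of 20479 in the genome. Trunk-alone ones were 17 of 35 on chromosome 8, against 6389 of 20479.

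**Figure D5:**
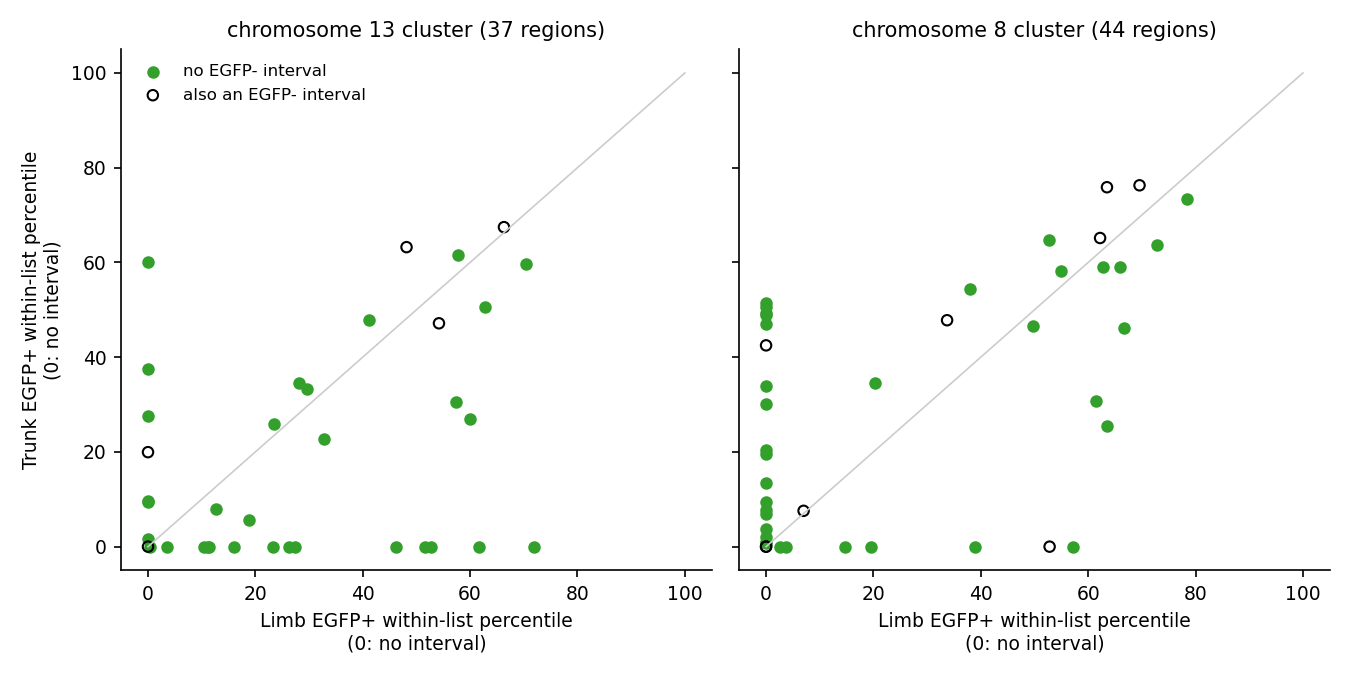
Within-list percentile of −log10 p in limb EGFP+ cells (horizontal axis) against trunk EGFP+ cells (vertical axis) for the 37 distal regions of the chromosome 13 cluster and the 44 of the chromosome 8 cluster, with 0 for no interval and the line of equal percentile in grey. Open circles also have an EGFP- interval. Regions of a single tissue lie along the axes, 14 and 6 (limb alone) on the horizontal and 6 and 17 (trunk alone) on the vertical one, mostly at low percentiles.

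Counted as intervals, the limb list gave 30 of the 54 distal EGFP+ intervals of the chromosome 13 cluster (55.6%, 41.4 to 69.1%) and 25 of 60 of the chromosome 8 cluster (41.7%, 29.1 to 55.1%). The background was 54.2%. Both of these 95% intervals contain the background and overlap each other. In EGFP- cells the limb gave 5 of 8 (62.5%, 24.5 to 91.5%) and 5 of 12 (41.7%, 15.2 to 72.3%), against 55.5%, which these counts do not separate.

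Most regions of a single tissue lay low in their lists, as did distal intervals in general. Of the 14 limb-alone regions on chromosome 13, 10 lay in the lower 50% of the limb EGFP+ list, and of the 17 trunk-alone regions on chromosome 8, 15 lay in the lower 50% of the trunk EGFP+ list. Their median percentiles were 24.8 and 19.7, below those of all distal intervals of these lists, 32.8 and 31.7. Of all distal limb EGFP+ intervals of the chromosome 13 cluster, 11 of 30 lay in the upper 50%. Of the distal trunk EGFP+ intervals of the chromosome 8 cluster, 12 of 35 did. An EGFP+ interval of the other tissue lay within 500 bp at 4 of the 14 and at 5 of the 17. Regions marked in both EGFP+ lists alone stood higher, with median percentiles of 37.0 (limb) and 31.9 (trunk) on chromosome 13, and of 62.1 and 56.3 on chromosome 8.

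On chromosome 8 the highest trunk-alone regions were the Foxc2 exon and a region in an intron of Gm63906, 267 kb downstream of Foxl1, with 39 reads (27.7 to 53.3) at percentile 50.5. The highest limb-alone region lay 47.0 kb downstream of Foxl1, at chr8:121901309-121901958 in an exon of the lncRNA Gm64798, with 27 reads (17.8 to 39.3) at percentile 57.1. Around the genes themselves, from Foxf1 to Foxl1, 4 distal regions were called, all 4 of them in trunk EGFP+ cells and 1 also in limb EGFP+ and trunk EGFP- cells.

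By −log10 p the distal EGFP+ intervals of chromosome 13 stood near the rest of their lists and those of chromosome 8 above it, while by reads both clusters stood above it. The median percentile of the distal EGFP+ intervals was 31.2 in the limb and 29.1 in the trunk on chromosome 13, close to the 32.8 and 31.7 over all distal intervals. On chromosome 8 it was 52.8 and 46.1. The median reads at the summit were 24.5 in the limb and 22 in the trunk on chromosome 13, and 24 and 26 on chromosome 8. Over all distal intervals of these lists they were 18 and 18. The median width was 390.5 and 369.5 bp on chromosome 13 and 439 and 359 bp on chromosome 8, against 331 and 324 bp over all distal intervals. The EGFP- intervals of the chromosome 13 cluster were low in their lists, with medians at percentile 4.90 and 11.5, while those of the chromosome 8 cluster stood at 37.4 and 38.9. Per megabase, limb EGFP+ cells had 35.3 and 38.8 distal intervals on chromosomes 13 and 8, and trunk EGFP+ cells had 28.2 and 54.4.

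On chromosome 8 EGFP+ intervals continued just past the limit of 300 kb, and on chromosome 13 they did not. The last limb EGFP+ interval inside it lay 293 kb from Foxl1, at percentile 20.3, and the first outside 303 kb, at 47.3. In trunk EGFP+ cells these were 296 kb, at 49.4, and 303 kb, at 44.7. On chromosome 13 the last limb EGFP+ interval lay 294 kb from Foxc1, at 27.4, and the first outside 367 kb, at 28.6. In trunk EGFP+ cells these were 294 kb, at 9.40, and 374 kb, at 5.98.

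Among the 37 forkhead genes outside the clusters, 17, 16, 18 and 16 promoters were marked in the 4 lists. In no list were 19 marked, against 41.3% of protein-coding genes. Marking in EGFP+ but not EGFP- cells was found in both tissues at Foxd2, a factor of paraxial and kidney mesenchyme. The related Foxd1 had it in the trunk. This makes 1 of the 37 for limb cells (background 4.82%) and 2 for trunk cells (background 3.21%). The reverse was found at none (background 2.02% and 3.32%). Counts this small do not separate the family from all genes. Among hedgehog pathway genes, the promoters of the receptor Ptch1, the transducer Smo and the effectors Gli1, Gli2 and Gli3 were marked in all 4 lists (47.4% of genes), that of the antagonist Hhip in both EGFP+ lists alone (1.45%), and that of Ihh, the hedgehog ligand of the growth plate, in limb EGFP+ cells alone (1.66%). The ligand genes Shh and Dhh were unmarked.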

How the data were processed

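Each of the 4 H3K27ac libraries gave 1 peak list. Per the study's methods and the submitters' processing notes, the authors sampled equal numbers of reads, trimmed them with CutAdapt 1.18, mapped them to GRCm39 with Bowtie2 2.3.5.1, filtered on mapping quality with Samtools and called peaks with MACS2 2.2.7.1, with reads extended to 200 bp and no control named. More than 1 read length and sonicator are named without saying which library had which. The deposited score is the authors' −log10 q times 10 without decimals. The deposited fold is a ratio of summit pileup to the local background of the same library, and the deposited −log10 p and −log10 q come from the same run of the authors. In trunk EGFP- cells the peaks are named as replicate 2, whereas the sample is labelled as replicate 1.

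Entries that shared their start and their end were taken as a single interval on chromosomes 1 to 19, X and Y, and intervals were assigned to genes and promoter windows from GENCODE in GRCm39, with overlaps of at least 1 bp. Summit reads and local background were solved from fold and −log10 p, within 0.01 of the deposited −log10 p. Depth enters through these reads. Intervals at the 95% level are exact (Clopper-Pearson for shares, Poisson for reads). With 1 library per population no test was made. The overlap, merging and read steps were tested on simulated data, with 6000 of 6000 overlaps, 10254 of 10254 merged regions and 2531 of 2531 summit reads recovered. Sequence was read from GRCm39. Scripts ran under Python 3.11.15 with pandas 2.3.3, numpy 2.4.6, pysam 0.24.0, scipy 1.17.1 and matplotlib 3.10.9. Regions were named where they held the 2 highest percentiles of their presence pattern in a cluster or lay in the upper 25% of a list, and a few others by position after their values were seen. The members, gene lists and rules were chosen with earlier results of these data known. Alternatives changed the peak threshold, list length, window, promoter filter, unit counted and overlap. The count over the hedgehog gene list is not reported here.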

Additional observations from a re-analysis of the deposited data

Results flagged for a closer look

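In 3 distal regions the EGFP+ and EGFP- lists differed in opposite directions in limb and trunk, by the percentile in the EGFP+ list minus that in the EGFP- list, with no interval set to 0. With 1 library per population this difference was not tested. In the Gmds intron 152 kb downstream of Foxc1 the difference was -4.90 in the limb, from 8 reads in EGFP- cells, and 19.9 in the trunk, from 17 reads in EGFP+ cells. In the region 2.93 kb upstream of Foxl1 it was 6.99 in the limb and -13.6 in the trunk. There trunk EGFP+ cells had 26 reads and trunk EGFP- cells 12, over local backgrounds of 11.1 and 2.38 reads, so that the sign by percentile is opposite to that by reads. In the Gm26815 intron 173 kb downstream of Foxl1 it was 15.4 in the limb and -43.2 in the trunk, where EGFP+ cells had no interval. The neighbouring region was marked in all 4 lists with 20 to 24 reads.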

How the results depend on the processing

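Each share was recomputed under other thresholds, list lengths, windows, promoter filters, counting units and overlaps. A further setting, all lists shortened to the 30716 intervals of the shortest, was chosen after seeing the data. In all, 98 recomputed shares moved by less than their counting interval and 16 by more. At −log10 q of at least 5, and with the 20000 strongest intervals of each list, the EGFP+ share of the chromosome 13 distal intervals and the share without EGFP- overlap were 100% in limb and trunk, from 14 and 8 and from 11 and 8 intervals. With the 20000 strongest intervals the limb share without EGFP- overlap on chromosome 8 was also 100%, of 14. At a fold of at least 4 both trunk shares on chromosome 13 were 100% of 5 intervals, and the limb share of EGFP- intervals was 100% of 1. Within 100 kb, the limb share without EGFP- overlap was 100% in both clusters, of 13 and 11, the limb EGFP+ share on chromosome 8 was 100%, and the limb share of its EGFP- intervals was 0% of 1. No EGFP- interval of chromosome 13 was left under the first 2 settings, so their limb share has no value. Across all settings the EGFP+ share kept to 85.7 to 100% on chromosome 13 and to 76.5 to 100% on chromosome 8. At a fold of at least 4, however, the trunk 95% intervals reached below the 57.6% of all trunk distal intervals. They came from 5 of 5 (47.8 to 100%) on chromosome 13 and 13 of 17 (50.1 to 93.2%) on chromosome 8. The 57.6% holds without a fold limit, and the share over all trunk distal intervals at a fold of at least 4 was not computed. The shares over all distal intervals were not computed under the other settings either, so these ranges have no matched background. The limb share of EGFP+ intervals ranged from 51.4 to 68.8% and from 40.0 to 53.6%. Of the counts per gene, 138 moved by over 1.5 times and 102 did not, and the direction turned once, for Foxq1 in the limb within 100 kb. The EGFP+ and EGFP- counts of the limb were equal under 2 settings for Foxf2 and under 1 for Foxc2. No paired analysis was possible because each population has 1 library, so the groups share fewer than 2 replicate numbers, and no library could be left out. Whether small peaks over a high local background were missed was not tested, nor was an effect of depth.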
